A study of Mus musculus with 18 samples.

Results

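Heat shock proteins and their cytosolic partners were represented by 40 genes of 51912 counted: the heat shock factors *Hsf1* and *Hsf2*, 10 genes of the Hsp70 and Hsp110 families, 4 genes of the Hsp90 system, 9 DnaJ and Bag cochaperones, 4 small heat shock proteins, 4 mitochondrial chaperones and 7 subunits of the TRiC chaperonin. They were chosen by name, with earlier results of these data known. All 40 had at least 10 read pairs over the 18 libraries and were among the 24495 genes tested. The libraries came from primary cortical astrocyte cultures of postnatal day 0 mice in which ribosomal protein RPL10A carries EGFP (Tg(Aldh1l1-EGFP/Rpl10a)JD130Htz on a B6;FVB background, bred with C57BL/6J), so that tagged ribosomes are made where the Aldh1l1 promoter is active. Translating ribosome affinity purification (TRAP) pulled these ribosomes out of the lysate (IP), and an aliquot of the lysate before the pull-down gave the total RNA (input). Every dish carried the transgene, held pooled cells of male and female pups, was grown for 14 days before and 6 days after subculture and was kept without serum for 24 h before treatment. The groups were IP control (6 dishes, 0 mM ethanol), IP ethanol (6 dishes, 50 mM ethanol for 24 h), input control (3 of the same control dishes) and input ethanol (3 of the same ethanol dishes). Input was sequenced from replicates 4 to 6 of each treatment. Replicates were separate dishes of pooled cultures, and p-values therefore measure the spread between dishes rather than between animals.

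Chaperones bind unfolded or partly folded polypeptides and let go of them in cycles that are mostly driven by ATP. Hsp70 proteins work with DnaJ proteins, which bring clients and start ATP hydrolysis, and with nucleotide exchange factors such as Hsp110 and Bag proteins, while Hsp90 takes over more nearly folded clients and the TRiC ring encloses proteins such as actin and tubulin. Heat and other protein damage release heat shock factor 1, which binds repeated nGAAn units (heat shock elements) in the promoters of inducible chaperone genes, and small heat shock proteins such as αB-crystallin are known for their high level in astrocytes.

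The libraries had 74239854 to 132810705 read pairs counted on genes, with a median of 84119135. *Aldh1l1*, whose promoter drives the tagged ribosome, ranged from 166.2 to 193 CPM in input and from 342 to 395 CPM in IP (log2 fold change 1.05, SE 0.0216, adjusted p = 5.45e-51). *Rpl10a*, whose protein carries the tag, was lower in IP (log2 fold change -0.53, SE 0.0197, adjusted p = 3.88e-36). CPM are counts scaled to a common library size by TMM. The astrocyte label was checked on 12 marker genes, of which 9 were higher and 1 lower in IP, with a summed level of 1579 to 1642 CPM in input control and 2449.6 to 2530.4 CPM in IP control. Markers of other cell types were detected as well. The summed level of 12 microglia markers was 168.2 to 175 CPM in input control and 70.0 to 75.5 CPM in IP control, that of 9 fibroblast markers was 309 to 319.6 CPM and 204 to 224 CPM, and that of 11 endothelial and mural markers was 1308 to 1379 CPM and 1634 to 1767 CPM. That of 10 oligodendrocyte lineage markers was 232 to 251 CPM and 358 to 377 CPM, and that of 11 neuron markers 173 to 177 CPM and 220 to 235 CPM. Of these lists, 2 microglia, 2 fibroblast, 4 endothelial and mural, 4 oligodendrocyte lineage and 5 neuron markers lay under 1 CPM. Whether the sums that were higher in IP stem from other cells was not tested. In such bulk RNA, fewer cells of a type and less RNA per cell cannot be told apart.

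To compare the genes with each other, CPM were divided by the length of the longest transcript in kb. The longest transcript need not be the one expressed, and ranks per kb depend on that choice. In IP control, the 40 genes spanned 623-fold on this scale, from 1.36 ± 0.139 CPM per kb for *Hspa1a* to 845 ± 8.44 CPM per kb for *Hsp90ab1* (mean ± SD, n = 6). For *Hspa1a* this is a lower bound, since pairs shared with the overlapping *Gm20481* had been set aside. Counts of its own strand held 201.7% as many pairs, so its lowest rank and the span depend on the counting. *Hsp90ab1*, the constitutive cytosolic Hsp90, and *Hspa8*, the constitutive Hsc70, stood above all others, and *Hspa8* at 601 ± 11.8 CPM per kb was 3.05-fold above the next gene. That gene was *Cryab*, which encodes αB-crystallin, at 197 ± 4.73 CPM per kb. It was followed by *Hsp90aa1*, the stress-inducible Hsp90, at 178 ± 2.91 CPM per kb, *Hspb8*, a small heat shock protein that works with Bag3, at 165.9 ± 5.68 CPM per kb, and *Stip1*, which encodes the cochaperone Hop that links Hsp70 to Hsp90, at 157.9 ± 5.28 CPM per kb.

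**Figure D1:**
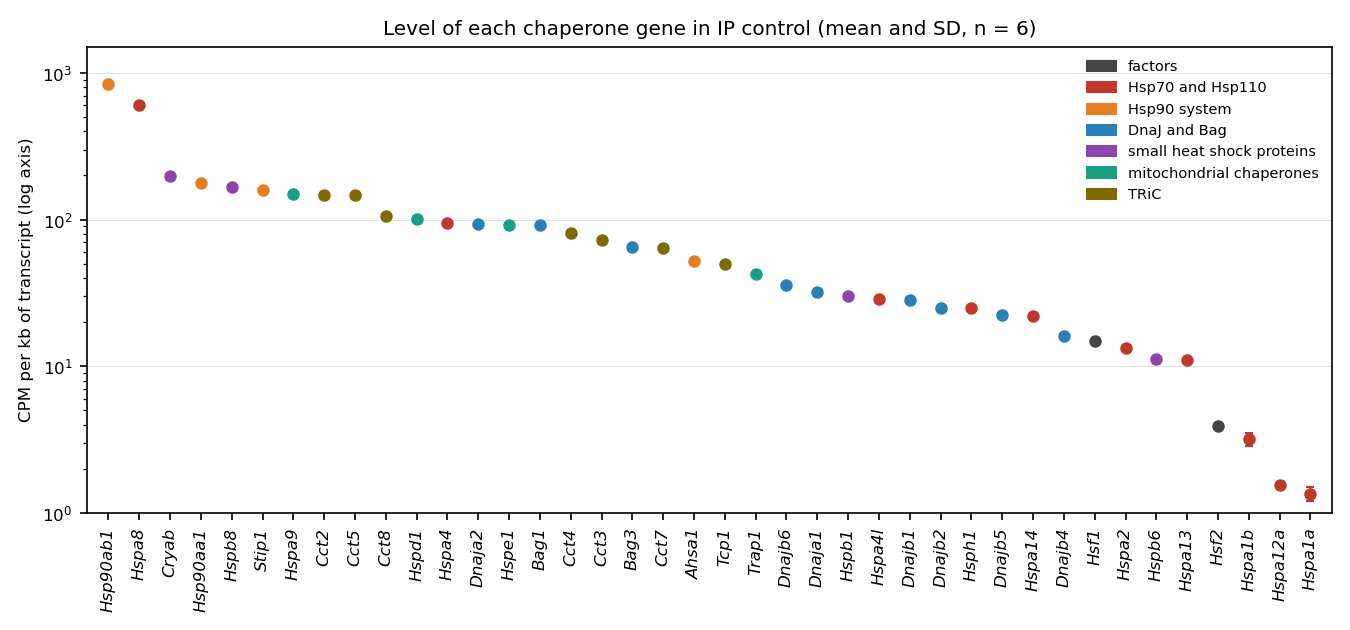
Level of each of the 40 chaperone genes in IP control on a log axis in CPM per kb of the longest transcript, ordered by level and coloured by role. Points are means and bars SDs of 6 libraries, and the inducible *Hspa1a* and *Hspa1b* sit near the lower end while *Hsp90ab1* and *Hspa8* sit above all others.

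The genes at the lower end were the strongly heat-inducible Hsp70 genes *Hspa1a* and *Hspa1b* (3.18 ± 0.307 CPM per kb), *Hspa12a*, a distant member of the family (1.55 ± 0.0785 CPM per kb), and *Hsf2* (3.89 ± 0.142 CPM per kb). The 7 TRiC genes, whose products enter the ring in equal numbers, lay within a 2.95-fold range, from 49.9 ± 1.15 CPM per kb for *Tcp1* to 147.2 ± 1.55 CPM per kb for *Cct2*. This range depends on the lengths used, which ran from 1.853 kb for *Cct5* to 3.884 kb for *Cct7*. Before division by length, the IP control means of the 7 genes ran from 170.7 CPM for *Tcp1* to 288 CPM for *Cct2*. Which transcripts are expressed was not tested. *Tcp1* overlaps genes on the other strand, and counts of its own strand held 136.9% as many pairs, so its level is a lower bound too. The 4 mitochondrial chaperones lay between 42.6 ± 1.16 CPM per kb for *Trap1* and 148.8 ± 2.98 CPM per kb for *Hspa9*. The plot of levels by gene shows that the SDs between dishes were small beside the distances between most genes, although some neighbours in the order, such as *Hspe1* and *Bag1* or *Bag3* and *Cct7*, differed by less than either gene's SD. These per-length levels are lower bounds for genes with near-identical copies, since only pairs mapped to 1 place were counted. The share of 100-base stretches found in the transcripts of other genes was 47.6% for *Hsp90aa1*, 42.7% for *Hspb1*, 31.6% for *Hspa8*, 31.0% for *Dnajb6* and 26.9% for *Hspd1*, each mostly with pseudogenes, and 48.6% and 49.9% for *Hspa1a* and *Hspa1b*, mostly with each other.

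IP was compared with input over the 18 libraries, with a term for treatment. The comparison asked how chaperone mRNA levels differ between tagged ribosomes and the total RNA of the dishes. The pull-down also changed the levels of cell type markers, with a median log2 fold change of 0.57 for 12 astrocyte markers and -2.46 for 12 microglia markers. Loading on ribosomes and enrichment of astrocyte RNA cannot be told apart here. Of the 40 genes, 38 passed an adjusted p of 0.05 in edgeR's quasi-likelihood test, beside 51% of all genes tested. More were higher than lower in IP, with 27 higher (all genes: 25.2%) and 11 lower (all genes: 25.8%). The share over all genes depends on the count filter. Among the 18173 genes kept by edgeR's filterByExpr, which drops genes with few reads, 12117 were called in all. Of the 40 genes, 39 were called there, 27 higher and 12 lower. The part of read depth in these shares was not tested. The median log2 fold change of the 40 genes was 0.23, beside -0.03 over all genes tested. For 30 of the 40 genes the 12 IP and 6 input libraries did not overlap (all genes: 25%). The 2 genes that did not pass were *Hsf1*, at -0.04 (SE 0.0232, adjusted p = 0.147), and *Hspb6*, at 0.06 (SE 0.0446, adjusted p = 0.253).

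**Figure D2:**
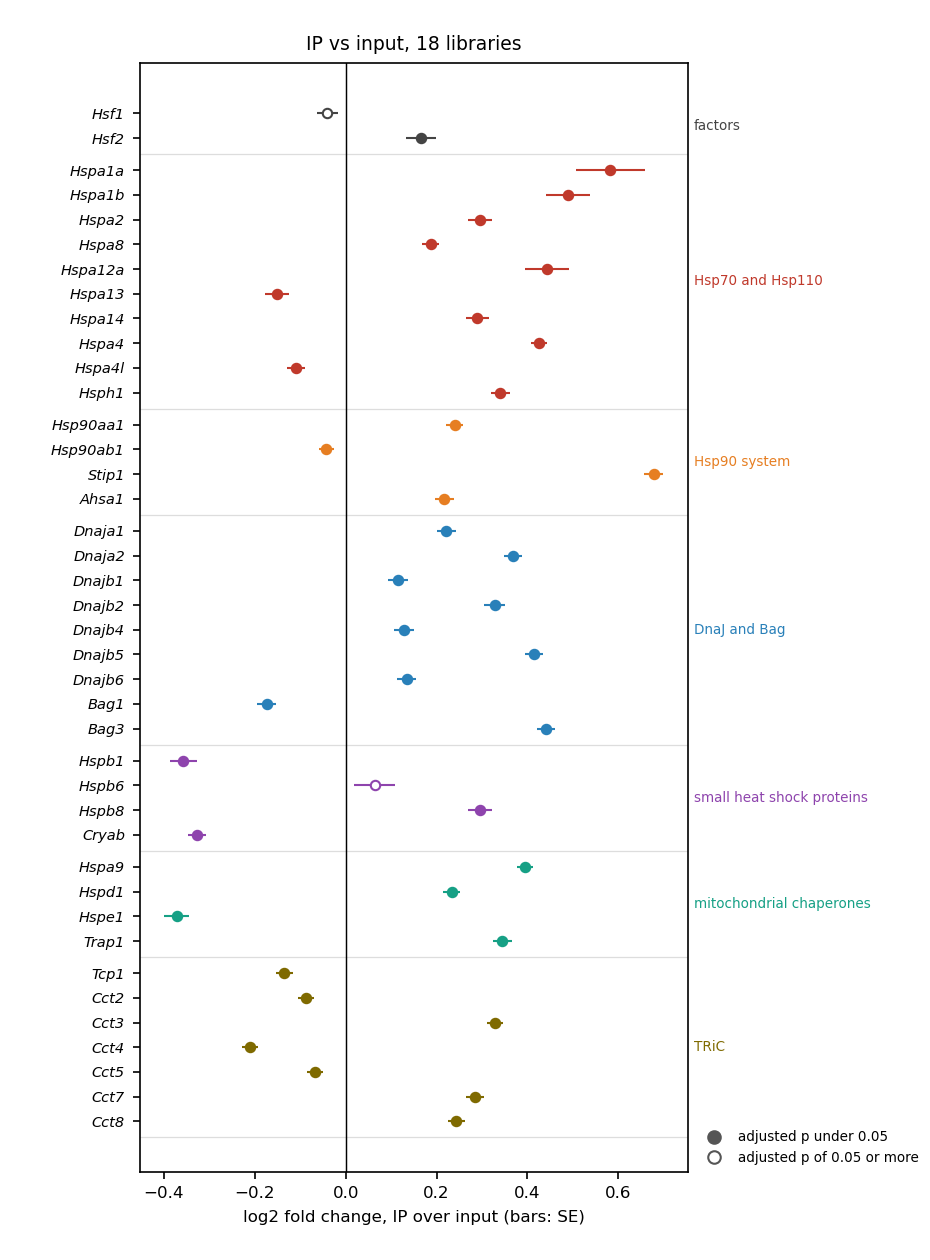
Log2 fold change of IP over input for each chaperone gene, grouped by role, with bars for the SE over 18 libraries. Filled points passed an adjusted p of 0.05. The Hsp70 and DnaJ groups lie mostly to the right of 0, while the TRiC subunits fall on both sides.

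Of the 10 Hsp70 and Hsp110 genes, 8 were higher in IP and 2 lower. *Hspa4*, a nucleotide exchange factor of the Hsp110 family (chr11:53259814-53300457, − strand, GRCm38), ranged from 280.1 to 331 CPM (median 305) in input and from 375 to 449.8 CPM (median 410.0) in IP (log2 fold change 0.43, SE 0.0184, adjusted p = 1.98e-32). Its relative *Hsph1* was at 0.34 (SE 0.0208, adjusted p = 3.92e-24), whereas *Hspa4l*, the third gene of that family, was lower in IP at -0.11 (SE 0.0201, adjusted p = 3.19e-06). The other gene that was lower was *Hspa13*, an Hsp70-like ATPase of the microsomes, at -0.15 (SE 0.0260, adjusted p = 7.16e-07). Thus the Hsp110 genes did not move together between the fractions. *Hspa12a* was higher in IP at 0.44 (SE 0.0489, adjusted p = 1.56e-12), *Hspa2* at 0.30 (SE 0.0263, adjusted p = 2.58e-16) and *Hspa14* at 0.29 (SE 0.0254, adjusted p = 1.58e-16). Of the heat shock factors, *Hsf2* was higher at 0.17 (SE 0.0333, adjusted p = 1.43e-05).

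The inducible pair had few reads and the largest differences of the family. *Hspa1a* (chr17:34969190-34972156, − strand) ranged from 2.16 to 3.38 CPM (median 2.83) in input and from 3.38 to 4.97 CPM (median 4.34) in IP (log2 fold change 0.58, SE 0.0759, adjusted p = 1.67e-09), and the ranges met at their edges. *Hspa1b* (chr17:34956436-34959238, − strand) ranged from 5.92 to 7.28 CPM (median 6.33) in input and from 7.55 to 9.73 CPM (median 8.88) in IP, with no overlap (log2 fold change 0.49, SE 0.0491, adjusted p = 4.21e-14). Exons of *Hspa1a* overlap *Gm20481* on the other strand, and pairs on both genes had been set aside. Counts of the gene's own strand held 201.7% as many pairs for *Hspa1a* and gave a log2 fold change of 0.59 (adjusted p = 7.52e-17). *Hspa8* rose less, from a median of 1601 CPM in input to 1841 CPM in IP (log2 fold change 0.19, SE 0.0189, adjusted p = 5.57e-14).

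*Stip1* (chr19:7020702-7039967, − strand) had the highest fold change of the 40 genes between the fractions. Its input control libraries were at 207, 205 and 214 CPM and its input ethanol libraries at 178, 174 and 175 CPM, while IP ranged from 263 to 346 CPM (median 309). Every IP library lay above every input library (log2 fold change 0.68, SE 0.0211, adjusted p = 1.66e-40). *Hsp90aa1* was higher in IP at 0.24 (SE 0.0192, adjusted p = 2.73e-18), and so was *Ahsa1*, an activator of the Hsp90 ATPase, at 0.22 (SE 0.0208, adjusted p = 6.35e-15). The abundant *Hsp90ab1* was slightly lower at -0.04 (SE 0.0165, adjusted p = 0.0246), and its call was lost without input control replicate 4 or without input ethanol replicate 6, with adjusted p from 0.0605 to 0.0659.

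All 7 DnaJ genes were higher in IP. They ran from *Dnajb1*, the inducible Hsp40, at 0.12 (SE 0.0212, adjusted p = 2.66e-06) to *Dnajb5* at 0.41 (SE 0.0199, adjusted p = 1.06e-29). Between them lay *Dnajb4* at 0.13 (adjusted p = 6.08e-07), *Dnajb6* at 0.13 (adjusted p = 2.13e-08), *Dnaja1* at 0.22 (adjusted p = 2.60e-15), *Dnajb2* at 0.33 (adjusted p = 3.08e-21) and *Dnaja2* at 0.37 (adjusted p = 4.66e-28). The Bag genes, which encode nucleotide exchange factors of Hsp70, went in opposite directions. *Bag3*, which joins Hsp70 to small heat shock proteins, ranged from 122 to 129 CPM (median 125) in input and from 160.8 to 179 CPM (median 171) in IP (log2 fold change 0.44, SE 0.0202, adjusted p = 5.74e-31). *Bag1* ranged from 135 to 139.7 CPM (median 137) in input and from 111 to 129 CPM (median 121) in IP (log2 fold change -0.17, SE 0.0210, adjusted p = 3.34e-11). Neither gene's ranges overlapped.

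The small heat shock proteins, which hold unfolded proteins without ATP, were split as well. *Cryab* was lower in IP, with 253 to 273 CPM (median 263) in input against 189.7 to 226 CPM (median 213) in IP (log2 fold change -0.33, SE 0.0196, adjusted p = 1.55e-24). *Hspb1*, the mouse Hsp25, was also lower at -0.36 (SE 0.0293, adjusted p = 8.17e-18), and *Hspb8* was higher at 0.30 (SE 0.0258, adjusted p = 8.12e-12). Microglia markers were lower in IP as well, with 11 of 12 called lower and 0 higher (all genes: 25.8% and 25.2%). Other non-astrocyte lists were mixed. Lower and higher were 5 and 3 of 9 fibroblast markers and 6 and 3 of 11 endothelial and mural markers. They were 4 and 4 of 10 oligodendrocyte lineage markers and 2 and 6 of 11 neuron markers. The part of other cells in the values of *Cryab* and *Hspb1* was not tested. The position of *Hspb6*, or Hsp20, between the fractions was not distinguishable from 0 at this spread, with a 95% interval of -0.02 to 0.15 on the log2 scale.

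In mitochondria, Hsp60 (*Hspd1*) forms a folding chamber that Hsp10 (*Hspe1*) closes, and Hspa9 and Trap1 are the Hsp70 and Hsp90 of the organelle. *Hspa9*, *Trap1* and *Hspd1* were higher in IP, at 0.39 (SE 0.0179, adjusted p = 3.11e-31), 0.34 (SE 0.0214, adjusted p = 8.81e-24) and 0.23 (SE 0.0188, adjusted p = 3.76e-18). *Hspe1*, the partner of *Hspd1* (chr1:55088132-55091307, + strand, head to head with *Hspd1*), was the lowest of the 40 genes. Its input libraries ranged from 103 to 114 CPM (median 107) and its IP libraries from 70.5 to 93.1 CPM (median 84.6), with no overlap (log2 fold change -0.37, SE 0.0267, adjusted p = 3.65e-15). Across the 40 genes, Spearman's rho between the log2 fold change and the transcript length was 0.298, beside 0.176 across 24415 genes, a description over genes that share the same libraries.

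The subunits of TRiC, which work in 1 complex, divided between the fractions. *Cct3*, *Cct7* and *Cct8* were higher in IP, at 0.33 (SE 0.0184, adjusted p = 4.32e-26), 0.28 (SE 0.0193, adjusted p = 8.47e-22) and 0.24 (SE 0.0182, adjusted p = 1.05e-19). *Tcp1*, *Cct2*, *Cct4* and *Cct5* were lower, at -0.13 (adjusted p = 3.05e-09), -0.09 (adjusted p = 1.21e-05), -0.21 (adjusted p = 1.31e-16) and -0.07 (adjusted p = 0.00116). For 6 of the 7 subunits the IP and input libraries did not overlap, *Cct5* being the exception. *Tcp1* shares exons with *Acat3* and *Mrpl18* on the other strand, and with the counts of its own strand, 136.9% of the pairs counted without regard to strand, its log2 fold change was -0.11 (adjusted p = 6.60e-07).

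The effect of ethanol was tested within each fraction. In both, chaperone genes were more often lower than higher in the ethanol dishes, and the largest change was that of *Hspb6* in input, which fell by 17.4%. In IP, 21 of the 40 genes were ethanol-regulated, beside 21.4% of all genes tested, with 19 lower (all genes: 9.48%) and 2 higher (all genes: 11.9%). With GC and length trends removed, 20 were lower and 5 higher (all genes: 2512 and 2813 of 24495). In input, 17 genes were ethanol-regulated (all genes: 15%), with 16 lower (all genes: 7.78%) and 1 higher (all genes: 7.21%). These shares over all genes also depend on the count filter. With filterByExpr, 21 of the 40 genes were lower and 2 higher in IP (all genes: 2699 and 2713 of 16839). In input, 16 were lower and 1 higher (all genes: 1837 and 1680 of 17493). The part of read depth was not tested. The median log2 fold change of the 40 genes was -0.06 in IP and -0.05 in input, beside medians of 0.01 and 0.00 over all genes tested. Control and ethanol libraries did not overlap for 13 of the 40 genes in IP (all genes: 9.96%) and for 22 in input (all genes: 27.1%). None of the 40 genes passed a test against a change of 1.2-fold in either fraction, whereas 95 genes in all passed it in IP and 55 in input.

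**Figure D3:**
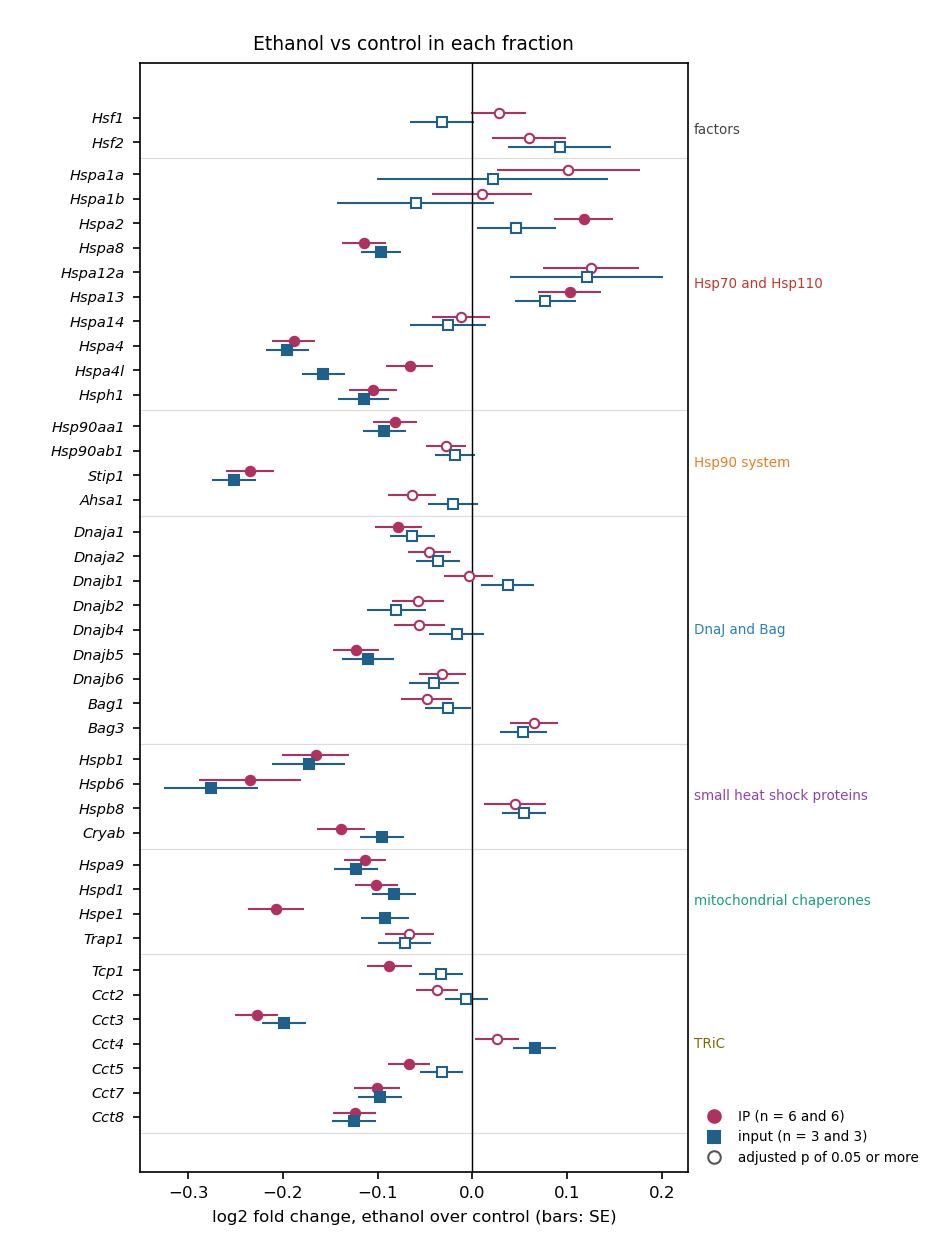
Log2 fold change of ethanol over control for each chaperone gene in IP (circles) and input (squares), grouped by role, with bars for the SE. Filled symbols passed an adjusted p of 0.05, and most filled symbols lie to the left of 0, down to -0.28 for *Hspb6* in input.

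The 2 comparisons draw in part on the same dishes, and their values stand side by side for that reason. The 16 genes lower in input were lower in IP too: *Hspa4*, *Hspa4l*, *Hspa8*, *Hsph1*, *Hsp90aa1*, *Stip1*, *Dnajb5*, *Hspb1*, *Hspb6*, *Cryab*, *Hspa9*, *Hspd1*, *Hspe1*, *Cct3*, *Cct7* and *Cct8*. IP replicates 1 to 3 came from dishes without an input library. Tested alone, they gave 11 lower chaperone genes (all genes: 1372 of 24495), and those 11 genes were among the 16. The overlap of calls over all genes tested was not counted. *Dnaja1*, *Tcp1* and *Cct5* passed as lower in IP and missed the threshold in input, and 18 genes passed in neither fraction. The heat map of single libraries shows the ethanol columns of both fractions in blue for the same rows of *Hspa4*, *Stip1*, *Cct3* and *Cct8*.

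**Figure D4:**
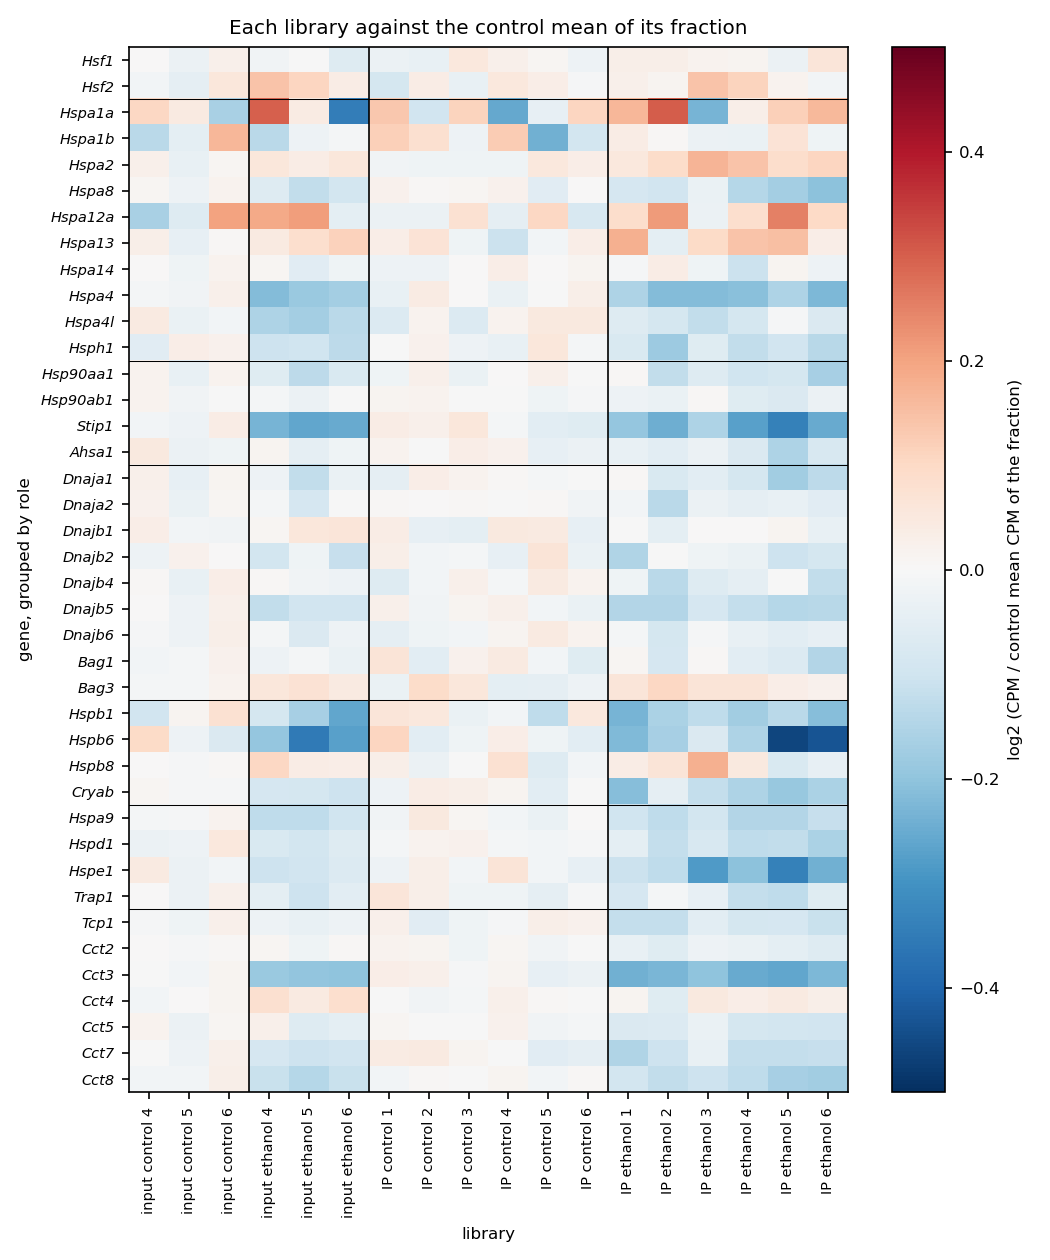
Log2 ratio of CPM in each library to the control mean of its fraction for the 40 genes, blue for lower and red for higher, with lines between groups and roles. The scale runs from -0.5 to 0.5, and *Hspa4*, *Stip1* and *Cct3* are blue in all 9 ethanol libraries.

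*Stip1* fell in every ethanol library. Input control libraries were at 207, 205 and 214 CPM, and input ethanol libraries at 178, 174 and 175 CPM. In IP, the control libraries ranged from 319 to 346 CPM (median 335) and the ethanol libraries from 263 to 299 CPM (median 280.0). The treatments did not overlap in either fraction, and *Stip1* fell by 15.0% in IP (log2 fold change -0.23, SE 0.0256, adjusted p = 1.26e-10) and dropped by 16.0% in input (log2 fold change -0.25, SE 0.0232, adjusted p = 1.35e-24). *Hsp90aa1* fell by 5.50% in IP (log2 fold change -0.08, SE 0.0236, adjusted p = 0.00728) and dropped by 6.23% in input (log2 fold change -0.09, SE 0.0224, adjusted p = 5.83e-04). *Hsp90ab1*, with 2098 to 2158 CPM (median 2128) in IP control and 2026 to 2139 CPM (median 2086) in IP ethanol, did not pass in IP (log2 fold change -0.03, SE 0.0210, adjusted p = 0.406) or in input (log2 fold change -0.02, SE 0.0211, adjusted p = 0.688). The 95% interval of its log2 fold change was -0.07 to 0.01 in IP and -0.06 to 0.02 in input. *Ahsa1* did not pass either, at -0.06 (adjusted p = 0.0603) in IP and -0.02 (adjusted p = 0.713) in input.

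**Figure D5:**
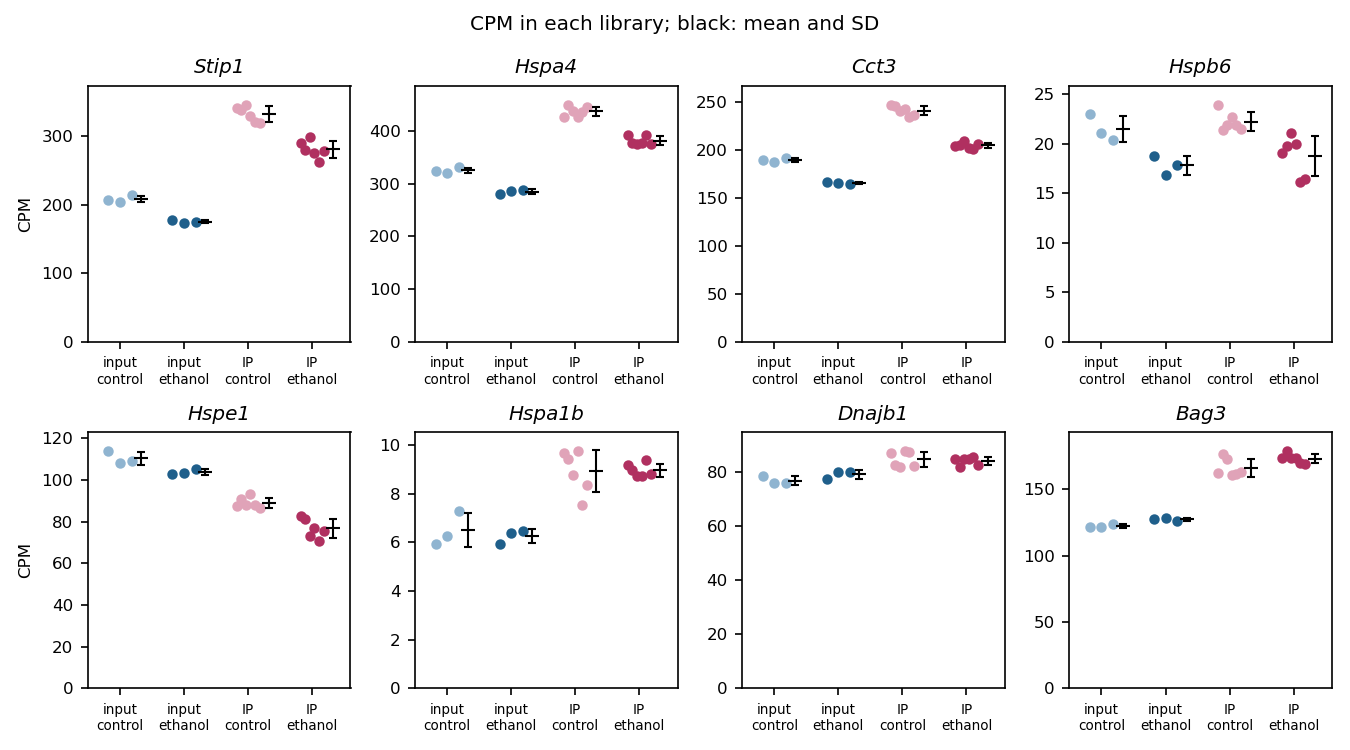
CPM of 8 chaperone genes in each of the 18 libraries, with a point for each library, a black line for the mean and bars for the SD, and axes that start at 0. *Stip1*, *Hspa4*, *Cct3*, *Hspb6* and *Hspe1* are lower in the ethanol libraries of both fractions, while *Hspa1b*, *Dnajb1* and *Bag3* did not pass in either. The 8 genes were chosen after their values were seen.

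Of the Hsp70 and Hsp110 genes, *Hspa4* had the largest ethanol change in both fractions. It was at 324, 321 and 331 CPM in input control and at 280.1, 286 and 289 CPM in input ethanol. In IP it ranged from 427 to 449.8 CPM (median 437) in control and from 375 to 393 CPM (median 377) in ethanol dishes. No ethanol library reached the lowest control library of its fraction, and *Hspa4* fell by 12.3% in IP (log2 fold change -0.19, SE 0.0228, adjusted p = 1.77e-09) and dropped by 12.7% in input (log2 fold change -0.20, SE 0.0229, adjusted p = 2.41e-15). *Hsph1* fell in both, at -0.10 (SE 0.0252, adjusted p = 0.00112) in IP and -0.11 (SE 0.0269, adjusted p = 3.47e-04) in input. *Hspa4l* fell in both as well, at -0.16 (SE 0.0229, adjusted p = 5.47e-10) in input and -0.07 (SE 0.0246, adjusted p = 0.0451) in IP. The difference between the fractions did not pass (log2 fold change 0.08, SE 0.0393, adjusted p = 0.830), and the call in IP was lost when any 1 of 7 libraries was left out, with adjusted p from 0.0519 to 0.115.

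The constitutive *Hspa8* fell by 7.62% in IP (log2 fold change -0.11, SE 0.0234, adjusted p = 1.31e-04) and dropped by 6.46% in input (log2 fold change -0.10, SE 0.0214, adjusted p = 1.35e-04). Its IP libraries ranged from 1826 to 1926 CPM (median 1908) in control and from 1649.6 to 1855 CPM (median 1747) in ethanol dishes, which overlap, and its input libraries did not overlap. The 2 genes that rose in IP were *Hspa2*, an Hsp70 known from the testis, from 33.8 ± 0.782 CPM in control to 36.5 ± 1.07 CPM in ethanol dishes (mean ± SD, n = 6; log2 fold change 0.12, SE 0.0311, adjusted p = 0.00303), and *Hspa13* (log2 fold change 0.10, SE 0.0330, adjusted p = 0.0184). *Hspa13* lost its call without IP control replicate 3 or 4 or without IP ethanol replicate 1 or 4, with adjusted p from 0.0568 to 0.116. In input, *Hspa2* was at 0.05 (adjusted p = 0.565) and *Hspa13* at 0.08 (adjusted p = 0.0927). *Hspa12a* was at 0.13 (adjusted p = 0.0706) in IP and *Hspa14*, an Hsp70 that associates with ribosomes, at -0.01 (adjusted p = 0.850).

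The strongly heat-inducible *Hspa1a* and *Hspa1b* did not pass in either fraction after 24 h of ethanol, the only time measured. Changes at earlier times were not measured. *Hspa1a* was at 2.95, 2.83 and 2.46 CPM in input control and at 3.38, 2.82 and 2.16 CPM in input ethanol, and ranged from 3.38 to 4.42 CPM (median 4.12) in IP control and from 3.42 to 4.97 CPM (median 4.44) in IP ethanol. *Hspa1b* was at 5.92, 6.28 and 7.28 CPM in input control and at 5.92, 6.38 and 6.44 CPM in input ethanol, and ranged from 7.55 to 9.73 CPM (median 9.10) in IP control and from 8.72 to 9.36 CPM (median 8.88) in IP ethanol. The treatments overlapped for both genes in both fractions. The log2 fold change in IP was 0.10 (SE 0.0754, adjusted p = 0.401) for *Hspa1a*, with a 95% interval of -0.05 to 0.25, and 0.01 (SE 0.0529, adjusted p = 0.936) for *Hspa1b*, with an interval of -0.09 to 0.11. In input it was 0.02 (SE 0.122, adjusted p = 0.955) and -0.06 (SE 0.0831, adjusted p = 0.745), with intervals of -0.22 to 0.26 and -0.22 to 0.10. With the counts of its own strand, *Hspa1a* was at 0.11 (adjusted p = 0.123) in IP and 0.08 (adjusted p = 0.643) in input.

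These 2 genes lie on chromosome 17 in the same direction, and the 140 bases before their start sites, shown because they carry the known heat-responsive promoter of the family, are equal at 139 of 140 positions. The RefSeq sequences (GRCm38.p6) are chr17:34972157-34972296 for *Hspa1a* and chr17:34959239-34959378 for *Hspa1b*, both on the − strand and written 5′ to 3′, with capitals for a match of GAANNTTC, a pair of heat shock units head to head, centred at position -100 from the start.
Hspa1a: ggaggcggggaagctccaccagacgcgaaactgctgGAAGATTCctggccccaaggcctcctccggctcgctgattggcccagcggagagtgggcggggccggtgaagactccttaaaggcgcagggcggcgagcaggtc
Hspa1b: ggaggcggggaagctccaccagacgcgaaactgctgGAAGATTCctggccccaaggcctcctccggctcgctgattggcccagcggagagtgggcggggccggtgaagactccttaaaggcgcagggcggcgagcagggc
A promoter window, 250 bases before to 50 after a RefSeq start, was given for 32 of the 40 genes. GAANNTTC, its own reverse complement, was found in the windows of 12 of the 32 genes (37.5%), beside 9.04% of 27025 genes. The near-equal promoters of *Hspa1a* and *Hspa1b* count separately here, as do *Hspd1* and *Hspe1*, which share a stretch. The tail-to-tail pair TTCNNGAA was found in 6 of 32 (18.8%), beside 9.60%. The windows of *Hsf1*, *Hspa8*, *Hspa9*, *Hspa13*, *Hsp90aa1*, *Hsp90ab1*, *Cryab* and *Cct4* were not used here.

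An element of 3 units, GAANNTTCNNGAA on either strand (reverse complement TTCNNGAANNTTC), was found in 4 of the 32 genes (12.5%), beside 0.662% of 27025 genes: *Hspd1*, *Hspe1*, *Hsph1* and *Dnajb6*. *Hspd1* and *Hspe1* share the same site, so these genes are not independent. Some genes have several windows. By window, the element was found in 6 of 46 (13%), beside 0.603% of 32851. Each element overlaps matches of the 2-unit motifs. The stretch between *Hspd1* and *Hspe1* holds 2 overlapping elements, and the sites are printed with these matches in capitals because they are the longest runs of heat shock units in the 32 windows searched. From a RefSeq start, the centre of the element nearest to it lies at position -78 in *Hspe1*, 21 in *Hsph1* and -40 in *Dnajb6*.
Hspe1, chr1:55088053-55088082, + strand: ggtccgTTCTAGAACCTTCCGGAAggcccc
Hsph1, chr5:149636280-149636309, − strand: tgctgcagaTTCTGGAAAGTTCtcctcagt
Dnajb6, chr5:29735843-29735872, + strand: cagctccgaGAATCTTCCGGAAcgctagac
*Hspd1*, *Hspe1* and *Hsph1* were lower with ethanol in both fractions, and *Dnajb6* did not pass in either, at -0.03 (adjusted p = 0.427) in IP and -0.04 (adjusted p = 0.375) in input. Of the genes with and without GAANNTTC, those lower with ethanol were 6 of 12 (50.0%) and 9 of 20 (45.0%) in IP, and 5 of 12 (41.7%) and 7 of 20 (35.0%) in input. A match of letters is a description of the sequence and was not tied to binding here.

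The following genes were likewise measured after 24 h of ethanol only. *Hsp90aa1*, *Hsph1*, *Hspd1*, *Hspe1* and *Hspb1* were lower in both fractions, while *Dnajb1*, *Bag3* and *Hspb8* did not pass in either. *Dnajb1* was at 78.5, 75.9 and 75.7 CPM in input control and at 77.1, 79.8 and 79.9 CPM in input ethanol, and in IP it ranged from 81.8 to 87.5 CPM (median 84.5) and from 81.8 to 85.4 CPM (median 84.7). Its log2 fold change was 0.00 (SE 0.0259, adjusted p = 0.950) in IP, with a 95% interval of -0.05 to 0.05, and 0.04 (SE 0.0279, adjusted p = 0.451) in input. *Bag3* was at 0.06 (SE 0.0250, adjusted p = 0.0543) in IP and 0.05 (SE 0.0249, adjusted p = 0.144) in input, and its 3 input ethanol libraries (127, 129 and 126 CPM) lay above its 3 input control libraries (122, 122 and 124 CPM). *Hspb8* was at 0.05 (adjusted p = 0.393) in IP and 0.05 (adjusted p = 0.0971) in input. The factors themselves did not pass: *Hsf1* was at 0.03 (adjusted p = 0.578) and -0.03 (adjusted p = 0.636), and *Hsf2* at 0.06 (adjusted p = 0.320) and 0.09 (adjusted p = 0.305), in IP and input. *Hsf1* mRNA ranged from 45.7 to 48.6 CPM in IP control and from 45.9 to 48.9 CPM in IP ethanol.

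Of the other DnaJ and Bag genes, *Dnajb5* fell by 8.14% in IP (log2 fold change -0.12, SE 0.0244, adjusted p = 8.39e-05) and dropped by 7.34% in input (log2 fold change -0.11, SE 0.0276, adjusted p = 0.00105). Its 6 IP ethanol libraries, 102 to 107 CPM, lay below its 6 IP control libraries, 110.4 to 115 CPM. *Dnaja1*, a main cytosolic Hsp40, fell in IP (log2 fold change -0.08, SE 0.0249, adjusted p = 0.0164), a call that was lost without IP ethanol replicate 5 (adjusted p = 0.0602), and was at -0.06 (adjusted p = 0.0525) in input. *Dnaja2*, *Dnajb2*, *Dnajb4* and *Bag1* did not pass in either fraction, with log2 fold changes of -0.05 (adjusted p = 0.175), -0.06 (adjusted p = 0.135), -0.06 (adjusted p = 0.142) and -0.05 (adjusted p = 0.223) in IP.

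The small heat shock proteins *Hspb6*, *Hspb1* and *Cryab* fell in both fractions. *Hspb6* (chr7:30552178-30555443, + strand) was at 23.0, 21.1 and 20.4 CPM in input control and at 18.8, 16.8 and 17.8 CPM in input ethanol, and ranged from 21.5 to 23.9 CPM (median 21.9) in IP control and from 16.2 to 21.1 CPM (median 19.4) in IP ethanol. The treatments did not overlap in either fraction, and replicates 5 and 6 were the lowest of the IP ethanol libraries. *Hspb6* fell by 17.4% in input (log2 fold change -0.28, SE 0.0496, adjusted p = 1.07e-06) and dropped by 15.0% in IP (log2 fold change -0.23, SE 0.0537, adjusted p = 0.00232). *Hspb1* fell by 11.3% in input (log2 fold change -0.17, SE 0.0389, adjusted p = 1.75e-04) and dropped by 10.8% in IP (log2 fold change -0.17, SE 0.0352, adjusted p = 2.36e-04), with overlapping libraries in both. *Cryab* fell by 6.40% in input (log2 fold change -0.10, SE 0.0230, adjusted p = 5.46e-04) and dropped by 9.17% in IP (log2 fold change -0.14, SE 0.0250, adjusted p = 1.65e-05).

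A marker sum also fell with ethanol beside these genes. The summed level of the 11 endothelial and mural markers, which include smooth muscle genes, was 1308 to 1379 CPM in input control and 907 to 974 CPM in input ethanol, and 1634 to 1767 CPM in IP control and 1057 to 1254 CPM in IP ethanol. Of the 11, 3 passed as lower in IP and 2 in input, and *Acta2* had the largest fall among those that passed in both. Between the fractions, 3 of the 11 were higher in IP, *Kdr* and *Acta2* most, and 6 were lower. Which cells carry the RNA behind this sum was not tested. *Hspb6*, *Hspb1* and *Cryab* are known from muscle as well as from astrocytes, and the part of other cells in their values was not tested. The summed astrocyte markers were 1579 to 1642 CPM in input control and 1626 to 1659.5 CPM in input ethanol, and 2449.6 to 2530.4 CPM in IP control and 2543 to 2629 CPM in IP ethanol. Of these 12 markers, 4 passed as higher and 4 as lower in input, and 4 as higher and 1 as lower in IP. *Aldh1l1* itself fell by 8.62% in input (log2 fold change -0.13, SE 0.0233, adjusted p = 9.38e-07) and was at -0.06 (SE 0.0246, adjusted p = 0.0934) in IP. The part of this marker's change in the chaperone values was not tested. In input control and input ethanol, the microglia markers were at 168.2 to 175 CPM and 183 to 196 CPM.

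Of the mitochondrial chaperones, *Hspa9*, *Hspd1* and *Hspe1* fell in both fractions, and all 4 had negative log2 fold changes. *Hspe1* was at 114, 108 and 109 CPM in input control and at 103, 103 and 105 CPM in input ethanol, and ranged from 86.5 to 93.1 CPM (median 88.1) in IP control and from 70.5 to 82.7 CPM (median 76.2) in IP ethanol. The treatments did not overlap in either fraction. It fell by 13.4% in IP (log2 fold change -0.21, SE 0.0297, adjusted p = 3.21e-07) and dropped by 6.19% in input (log2 fold change -0.09, SE 0.0258, adjusted p = 0.00409). *Hspd1*, which shares the stretch between the start sites, fell by 6.78% in IP (log2 fold change -0.10, SE 0.0231, adjusted p = 5.84e-04) and dropped by 5.58% in input (log2 fold change -0.08, SE 0.0232, adjusted p = 0.00412). In input the call of *Hspe1* was lost without input control replicate 4 (adjusted p = 0.0964) and that of *Hspd1* without input control replicate 6 (adjusted p = 0.179). *Hspa9* was at -0.11 (SE 0.0223, adjusted p = 7.48e-05) in IP and -0.12 (SE 0.0228, adjusted p = 2.41e-06) in input, while *Trap1* missed the threshold at -0.07 (adjusted p = 0.0587) and -0.07 (adjusted p = 0.0687).

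TRiC subunits differed in their response. *Cct3* (chr3:88297116-88321767, + strand) was at 189.5, 188 and 191 CPM in input control and at 166.4, 165.4 and 164.9 CPM in input ethanol, and ranged from 234 to 247 CPM (median 242) in IP control and from 202 to 209.8 CPM (median 205) in IP ethanol. All 9 ethanol libraries lay below the control libraries of their fraction. *Cct3* fell by 14.6% in IP (log2 fold change -0.23, SE 0.0230, adjusted p = 7.71e-12) and dropped by 12.9% in input (log2 fold change -0.20, SE 0.0233, adjusted p = 2.73e-15). *Cct8* was at -0.12 (SE 0.0227, adjusted p = 2.19e-05) in IP and -0.12 (SE 0.0232, adjusted p = 2.50e-06) in input, and *Cct7* at -0.10 (SE 0.0241, adjusted p = 0.00107) and -0.10 (SE 0.0232, adjusted p = 4.26e-04).

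*Tcp1* and *Cct5* fell in IP, at -0.09 (SE 0.0236, adjusted p = 0.00370) and -0.07 (SE 0.0224, adjusted p = 0.0225), and were at -0.03 (adjusted p = 0.421) and -0.03 (adjusted p = 0.425) in input. The call of *Cct5* was lost without IP ethanol replicate 4 (adjusted p = 0.0576). *Cct2* did not pass, at -0.04 (adjusted p = 0.265) in IP and -0.01 (adjusted p = 0.919) in input. *Cct4* was the single chaperone gene that rose in input, from 228, 230.2 and 232 CPM in control to 243, 237 and 244 CPM in ethanol dishes (log2 fold change 0.07, SE 0.0230, adjusted p = 0.0323). Its call was lost when any 1 of input control replicates 4, 5 and 6 and input ethanol replicates 4 and 6 was left out, with adjusted p from 0.0656 to 0.164, and in IP it was at 0.03 (adjusted p = 0.504). *Cct6a*, a TRiC subunit outside the 40 genes, fell in both fractions, with log2 fold changes of -0.15 (adjusted p = 5.04e-06) in IP and -0.15 (adjusted p = 2.30e-08) in input.

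The difference of the ethanol effect between IP and input was an interaction term in a fit of all 18 libraries, since a call in one fraction alone does not show a difference. By edgeR, 0 of the 40 genes passed (all genes: 0%), and by DESeq2 0 of the 40 and 2 genes in all. At an unadjusted p under 0.05 there were 2 of the 40 genes and 1459 of all 24495. The lowest and highest differences among the 40 genes were -0.13 for *Hspe1* (log2 fold change -0.13, SE 0.0476, adjusted p = 0.739) and 0.08 for *Hspa4l*. With the dish as a replicate block in the 12 libraries of dishes with both fractions, *Hspe1* passed at -0.16 (SE 0.0413, adjusted p = 0.0421), and no gene of the 40 passed once GC and length trends were removed as well.

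Related chaperones outside the 40 genes were followed in lists that were also chosen by name, with earlier results of these data known. Over all genes tested, 11.9% were higher and 9.48% lower in IP with ethanol, and 7.21% higher and 7.78% lower in input. Of 40 further cytosolic chaperones and cochaperones, 11 were lower and 0 higher in IP with ethanol, and 9 lower and 0 higher in input, with a median log2 fold change of -0.04 and -0.05. Among them *Pdcl3*, a cofactor of TRiC, was at -0.19 (adjusted p = 7.81e-07) in IP and *Nudc*, an Hsp90 cochaperone, at -0.15 (adjusted p = 1.43e-08) in input. Prefoldin hands actin and tubulin to TRiC. Of its 6 subunit genes, 3 were lower in IP and 2 in input, with *Pfdn1* at -0.18 (adjusted p = 2.21e-07) and -0.13 (adjusted p = 7.14e-06) and *Pfdn2* at -0.09 (adjusted p = 0.0470) in input. Of 12 other mitochondrial chaperones and proteases, 4 were lower and 1 higher in each fraction, and *Grpel1*, the nucleotide exchange factor of Hspa9, was at -0.15 (adjusted p = 1.54e-05) in IP and -0.11 (adjusted p = 0.00263) in input.

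Chaperones of the endoplasmic reticulum were more often higher than lower. Of 14 such genes, 7 were higher and 0 lower in IP (all genes: 11.9% and 9.48%), and 3 were higher and 0 lower in input (all genes: 7.21% and 7.78%). *Canx*, the lectin chaperone calnexin, was at 0.13 (adjusted p = 4.42e-06) in IP and 0.10 (adjusted p = 1.14e-04) in input. *Dnajb9*, a DnaJ protein of the lumen, was at 0.12 (adjusted p = 0.00161) and 0.14 (adjusted p = 4.07e-04). The median log2 fold change of the 14 genes was 0.06 in IP and 0.03 in input, against -0.06 and -0.05 for the 40 heat shock and cytosolic chaperone genes, and the difference between the lists was not tested.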

How the data were processed

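Counts of read pairs per gene were deposited by the authors for 18 libraries, without normalization. Per the labels, libraries were made with an Illumina Stranded Total RNA kit. Per the study's methods, reads were trimmed with Trimmomatic, aligned to GRCm38 with STAR and the Ensembl annotation, and counted on genes. The joint table, which holds the counts taken without regard to strand, was used and had 0 differences from the files of single libraries. Pairs mapped to several places, on average 3.60%, and pairs on more than 1 gene, on average 5.50%, were left out by the authors, and 4.35% of assigned pairs lay on the opposite strand.

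Genes with a total of at least 10 pairs were fitted with edgeR 4.0.16 (TMM, estimateDisp, glmQLFit with robust estimation, glmQLFTest) in R 4.3.3, with Benjamini-Hochberg adjustment over all 24495 genes and a threshold of 0.05. The SE is the absolute log2 fold change divided by the square root of F, and 95% intervals are normal intervals from this SE. IP vs. input used all 18 libraries with a treatment term, ethanol used 12 IP or 6 input libraries, and the interaction used all 18. Alternatives were DESeq2 1.42.0, other scaling and filtering, counts of the gene's strand, GC and length trends, replicate blocks, a test against a 1.2-fold change, subsets of libraries and each library left out. The genes named were the 40, with *Aldh1l1* and *Rpl10a* as a check of the pull-down and at most 2 genes per list and direction from the pathway lists. These genes and lists were chosen with earlier results of these data known.

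IP and input libraries with the same treatment and number come from the same dish, and the correlation of their deviations from the group means was 0.0353 to 0.201 over 11039 genes. The closest libraries of a group, IP control 5 and 6, had a chi-square of 4.06 per degree of freedom between their counts, where sampling noise alone gives about 1, so none was a copy, and replicate spread rather than depth set the precision of genes with many reads. On data simulated from these libraries, the fits recovered 50 of 50 genes changed by 1.2-fold for IP vs. input, 48 of 50 for ethanol in IP, 43 of 50 for ethanol in input and 40 of 50 for the interaction, with at most 8.65% false calls. The changed genes were drawn from those above 5 CPM on average, and 1.2-fold was the smallest change. Recovery of smaller changes, such as most ethanol effects on the 40 genes, and of genes with fewer reads, such as *Hspa1a*, was not simulated. Lengths and positions are those of GENCODE M21, and promoter windows those of RefSeq on GRCm38.p6, each equal to the genome sequence at its coordinates.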

Additional observations from a re-analysis of the deposited data

Results flagged for a closer look

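With groups of 6 libraries, a library was singled out where its gap to the nearest other library exceeded 0.625 of the group's range. This was checked in the 80 groups formed by the 40 genes and the IP control and IP ethanol libraries, and 4 groups met it, where chance gives about 1 in 20. *Hspa8* was lowest in IP control replicate 5 at 1826 CPM, below the next library at 1900 CPM and the highest at 1926 CPM. *Dnaja2* was lowest in IP control replicate 6 at 267 CPM, in a group that reached 272 CPM, and in IP ethanol replicate 2 at 246 CPM, where the next library was at 260 CPM. *Cct4* was lowest in IP ethanol replicate 2 at 194 CPM, with the other 5 libraries between 205 and 209 CPM.

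The ethanol effect on *Hspe1*, the mitochondrial Hsp10, differed between IP and input by -0.16 on the log2 scale (SE 0.0413, adjusted p = 0.0421 by edgeR) when the dish was a replicate block, and missed the threshold in the fit of all 18 libraries without the block (-0.13, adjusted p = 0.739).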

How the results depend on the processing

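No chaperone gene that passed in a comparison changed its direction in any alternative that was run. Against a change of 1.2-fold, 16 of the 40 genes (4936 in all) passed for IP vs. input, 0 (95) for ethanol in IP and 0 (55) for ethanol in input. In IP replicates 1 to 3 alone, 13 of the 40 (2995 in all) were ethanol-regulated, 11 of them (1372 in all) lower. For the interaction, DESeq2 called 2 genes in all, and leaving out each library gave 0 to 1. With each library left out, calls among the 40 genes ranged from 37 to 38 for IP vs. input (12069 to 12503 in all). They ranged from 18 to 24 for ethanol in IP (4616 to 5244 in all) and from 15 to 18 for ethanol in input (2861 to 3164 in all). All 27 higher genes for IP vs. input and 16 of the 19 lower genes for ethanol in IP were called in each of these runs.

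The dish as a replicate block left 38 of the 40 genes (11659 in all) called for IP vs. input. For the interaction it gave 1 gene of the 40 and 102 in all, or 0 and 42 once GC and length trends were removed as well. Between treatments, only the replicate number links dishes. This number as a replicate block gave 25 genes of the 40 (5782 in all) for ethanol in IP. Of these, 4 were higher and 21 lower (3236 and 2546 in all). In input it gave 19 (3829 in all). Deviations of same-numbered libraries correlated at -0.149 to 0.403 in IP. Other scaling gave 2 higher and 21 lower genes in IP (in all 2618 and 2573 with RLE scaling, 2818 and 2394 with total counts). The removal of GC and length trends gave 5 higher and 20 lower (2813 and 2512 in all). Depth limits the genes with the fewest pairs, among them *Hspa1a* and *Hspa1b*.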

Other observations

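Related chaperones outside the 40 genes also differed between IP and input, where 25.2% of all genes tested were higher and 25.8% lower in IP. Of 40 further cytosolic chaperones and cochaperones, 21 were higher and 7 lower in IP by edgeR. *Hspb11*, which is named as a small heat shock protein and works in cilia, was at 29.2 ± 1.86 CPM in input control (n = 3) and 17.6 ± 0.925 CPM in IP control (n = 6), with a log2 fold change of -0.75 (adjusted p = 3.03e-33) by edgeR. *Hsf4*, a heat shock factor known from the lens, was lower as well at -1.25 (adjusted p = 1.20e-20). Of the 6 prefoldin genes, 1 was higher and 3 were lower, with *Pfdn5* at -0.60 (adjusted p = 1.00e-34) and *Pfdn6* at 0.22 (adjusted p = 7.05e-10), so that subunits of this complex, like those of TRiC, lay on both sides. Of 14 chaperones of the endoplasmic reticulum, 8 were higher and 4 lower, from *Sdf2l1* at -0.22 (adjusted p = 1.86e-09) to *Hyou1* at 0.32 (adjusted p = 4.59e-24). Of 12 other mitochondrial chaperones and proteases, 8 were higher and 2 lower, among them *Hscb*, a DnaJ protein of iron-sulfur cluster assembly, at -0.63 (adjusted p = 2.27e-29) and *Clpb* at 0.43 (adjusted p = 2.31e-29).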
